A study of Mus musculus with 4 samples.

Results

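Autotaxin, the secreted enzyme encoded by Enpp2, is described here with 5 receptors of its product lysophosphatidic acid (LPA), Lpar1, Lpar2, Lpar3, Lpar4 and Lpar6, and with the lipid phosphatases Ppap2a and Ppap2b. These 8 genes were taken by symbol from the 23337 gene rows of the count table. The set was chosen by the counts of Enpp2, which were lower in both mutant libraries. The members' values in this comparison are therefore given as a description, and the counts of members past a threshold support nothing. RNA was sequenced from cardiac cushions, the tissue of the atrioventricular canal and outflow tract from which the heart valves form, of C57BL/6 mouse embryos at embryonic day 14.5. Wildtype embryos gave 2 libraries, and 2 came from Nfatc1Cre;Brg1F/F mutants. In the mutants Brg1, the SWI/SNF chromatin remodelling ATPase whose gene symbol is Smarca4, is deleted by a Cre expressed from Nfatc1, a gene of the endocardium. The dissection of all 4 libraries was guided by the GFP of a Cre reporter. Whether wildtype embryos carried the Cre, and how many embryos made up a library, is not given in the sources used here, so the spread between libraries may be technical in part.

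Autotaxin cleaves lysophosphatidylcholine outside cells and releases LPA, a lipid mediator. LPA acts through G protein-coupled receptors of separate lineages: Lpar1, Lpar2 and Lpar3 belong to the EDG family, whose other members bind sphingosine 1-phosphate, and Lpar4 and Lpar6 to the P2Y-like family. The phosphatases encoded by Ppap2a (LPP1, now Plpp1) and Ppap2b (LPP3, now Plpp3) remove the phosphate from LPA at the cell surface and so end its signal. Mouse embryos without autotaxin, and embryos without Ppap2b, die at mid-gestation with defects of their blood vessels. In the adult heart, autotaxin has been studied in calcific disease of the aortic valve.

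Gene rows held 14104458 to 22426537 reads a library, where 3 reads are worth 0.132 to 0.212 CPM (counts scaled to a common library size). Smarca4, the targeted gene, measured 251 and 231 CPM in wildtypes 1 and 2, against 282 and 239 CPM in mutants 1 and 2. It was thus no lower in the libraries labelled mutant, although a whole-gene count also holds reads of undeleted exons and of cells that the Cre does not reach. Of 4 Y-linked genes (Kdm5d, Ddx3y, Eif2s3y and Uty), both replicate 1 libraries had 0 reads, wildtype 2 had 11 to 28 reads each and mutant 2 had 1131 to 3384. By these genes, pair 2 (wildtype 2 and mutant 2, read as littermates) differs in sex as well as in genotype, while pair 1 shows no such difference.

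Enpp2 lies on chromosome 15 at 54838901 to 54952892 (mm10, minus strand). Its exons overlap those of Gm26684, a noncoding gene on the opposite strand with no count row under that symbol. Of its stretches of 30 bases, 5.48% also occur in transcripts of other genes, Gm26684 foremost. Enpp2 had 297 and 395 reads in wildtype replicates 1 and 2, and 147 and 67 reads in mutant replicates 1 and 2. Scaled for depth, these were 15.8 and 24.9 CPM in wildtype, against 6.47 and 4.73 CPM in the mutant. Both mutant libraries lay below both wildtype libraries, and the wildtype libraries also differed from each other. The exact Poisson 95% intervals, which cover counting error only, were 14.1 to 17.7 and 22.5 to 27.5 CPM in wildtype, against 5.47 to 7.60 and 3.67 to 6.01 CPM in the mutant. The wildtype intervals thus do not meet each other, while those of the mutant libraries do. The group levels were 20.4 ± 6.44 and 5.60 ± 1.23 CPM (SD, n = 2 libraries each), a mutant level 0.275 times that of wildtype. On the log2 scale the fold change was -1.84 ± 0.27 (SE). In pair 1, whose libraries had no Y-linked reads, the mutant held 0.409 times the wildtype level, and in pair 2 it held 0.190 times. In bulk tissue, fewer cells that make Enpp2 and less Enpp2 RNA per cell cannot be told apart.

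A ratio within a library does not depend on the scaling between libraries. Per 100 reads of the 5 LPA receptors together, wildtype libraries held 12.3 and 19.2 Enpp2 reads and mutant libraries held 5.37 and 3.46. Per 100 reads of Ppap2a and Ppap2b together, the wildtype values were 22.6 and 32.8 and the mutant values 9.23 and 7.71. Both ratios were lower in each mutant library than in either wildtype library. Enpp2 was chosen for its lower mutant counts, so the lower ratios are no further result. Among the 14316 genes tested, 9 had a lower log2 fold change than Enpp2, and of the 3936 genes whose mean CPM was within 2-fold of that of Enpp2, 0 did. The median log2 fold change was 0.00 over all tested genes, with quartiles of -0.14 and 0.14. A mutant mean below 0.5 times the wildtype mean was found for 0.552% of the tested genes. Because Enpp2 was picked for its low mutant values, its place among all genes is a description and supports nothing.

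**Figure D1:**
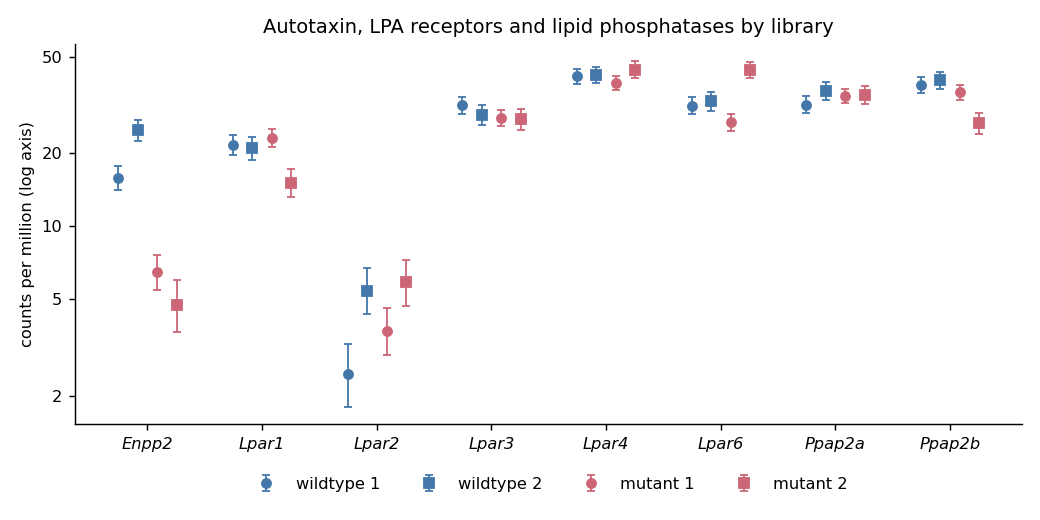
CPM (log axis) of the 8 members in each of the 4 libraries; blue is wildtype, red is mutant, circles are replicate 1 and squares replicate 2, and bars are exact Poisson 95% intervals of the counts. Enpp2 sits at 15.8 and 24.9 CPM in wildtype, against 6.47 and 4.73 CPM in the mutant, while Lpar2 is higher in the replicate 2 libraries of both genotypes and the other members lie closer together.

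The receptors of the EDG family differed widely in level. Lpar3 (chromosome 3, 146220963 to 146286186) measured 31.5 and 28.8 CPM in wildtype, against 27.9 and 27.6 CPM in mutants 1 and 2. Both mutant values were lower, by a margin smaller than the gap between the wildtype libraries, and the log2 fold change was -0.12 ± 0.16 (SE). Lpar1, the most widely expressed LPA receptor of the mouse (chromosome 4, 58435255 to 58553898), stood at 21.6 and 21.0 CPM in wildtype, against 23.2 and 15.1 CPM in the mutant. The mutant libraries thus fell on either side of the wildtype ones, mutant replicate 2 being the low one. The log2 fold change of Lpar1 was -0.14 ± 0.21 (SE), made up of 0.10 in pair 1 and -0.47 in pair 2. Lpar2 (chromosome 8, 69822429 to 69831102) had the lowest mean of the members, at 2.45 and 5.43 CPM in wildtype, against 3.70 and 5.86 CPM in the mutant. Here the replicate 2 libraries of both genotypes were higher than the replicate 1 libraries, and the difference between genotypes was 0.27 ± 0.40 (SE) on the log2 scale.

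The P2Y-like receptors are known from work on endothelial cells, where they couple to the G proteins Gna12 and Gna13. Lpar4, an X-linked gene (X chromosome, 106920625 to 106933900), measured 41.5 and 42.0 CPM in wildtype, against 38.9 and 44.3 CPM in mutants 1 and 2. It was among the steadiest members, with overlapping groups and a log2 fold change of -0.01 ± 0.15 (SE). Mutant replicate 2, the library with the most Y-linked reads, had the highest Lpar4 value. Lpar6 (chromosome 14, 73237895 to 73243294) measured 31.4 and 32.7 CPM in wildtype, against 26.9 and 44.1 CPM in the mutant. Mutant replicate 1 was the lowest and mutant replicate 2 the highest of the 4 libraries, so the groups overlapped, with a log2 fold change of 0.14 ± 0.22 (SE). Without mutant replicate 2 that value was -0.25, so its sign rests on that library. Lpar6 lies within the span of Rb1, on the opposite strand, and 8.84% of its stretches of 30 bases also occur in transcripts of other genes, Rb1 foremost. Rb1 itself measured 52.1 and 53.2 CPM in wildtype, against 57.0 and 54.3 CPM in the mutant, without the high value that Lpar6 has in mutant replicate 2.

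**Figure D2:**
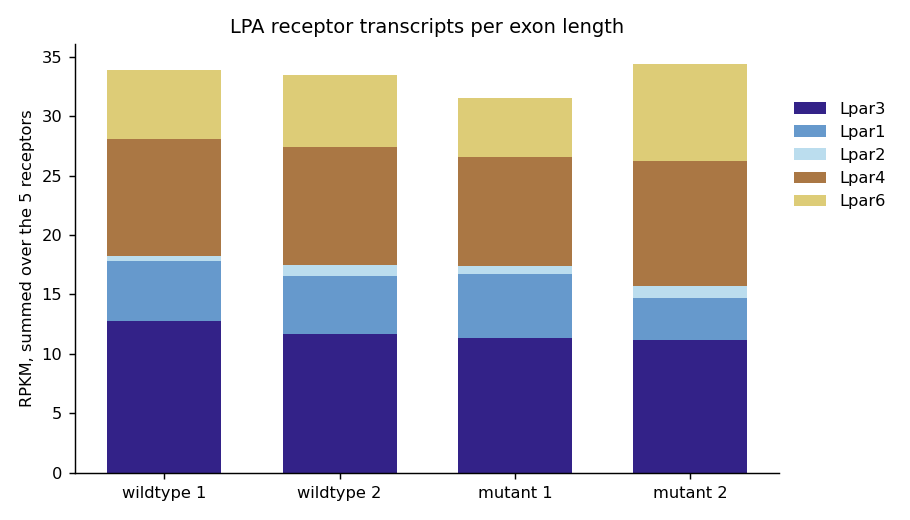
Levels per exon length (RPKM, that is CPM per kilobase of exon) of the 5 LPA receptors, stacked from 0, in each library. The sum runs from 31.5 to 34.3 RPKM over the 4 libraries, with Lpar3 the largest part in each and a larger Lpar6 part in mutant replicate 2.

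To compare the receptors with each other, CPM was divided by the length of each gene's exons (RPKM). The 5 receptors summed to 33.9 and 33.5 RPKM in wildtype and to 31.5 and 34.3 RPKM in the mutant. The total was thus much alike in all 4 libraries, with both wildtype values between those of the mutant. Of that sum, Lpar3 made up 37.8% and 34.9% in wildtype and 35.9% and 32.6% in mutant replicates 1 and 2, and Lpar4 made up 28.9% to 30.4% in all libraries. Lpar2 stayed between 1.24% and 2.92%. The P2Y-like receptors together held 46.1% and 47.7% in wildtype, 44.9% in mutant replicate 1 and 54.2% in mutant replicate 2. The last value goes with the high Lpar6 (23.8% of the sum, against 15.8% to 18.1% elsewhere) and the low Lpar1 (10.3%, against 14.6% to 17.2%) of that library.

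Ppap2a (chromosome 13, 112800792 to 112867894), one of the phosphatases that end the LPA signal, measured 31.7 and 36.1 CPM in wildtype, against 34.5 and 34.8 CPM in mutants 1 and 2. The mutant values lay between the wildtype ones, and the log2 fold change was 0.03 ± 0.16 (SE). The 3' end of Ppap2a overlaps Skiv2l2 (now Mtrex) on the opposite strand, and 24.2% of its stretches of 30 bases occur in transcripts of other genes. Skiv2l2 measured 131 to 148 CPM in the 4 libraries. The other phosphatase gene, Ppap2b (chromosome 4, 105157347 to 105232764), stood at 38.3 and 39.9 CPM in wildtype, against 35.6 and 26.6 CPM in the mutant. Both mutant libraries were lower, mutant replicate 2 by more than replicate 1, with a log2 fold change of -0.33 ± 0.18 (SE). By pair the difference was -0.10 and -0.59 in pairs 1 and 2. Reads of Ppap2b per read of Ppap2a went from 1.21 and 1.11 in wildtype to 1.03 and 0.763 in the mutant, lower in each mutant library.

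Per exon length, Ppap2a was the highest of the 8 genes, at 18.1 to 20.6 RPKM over the 4 libraries, above the range of every other member. Lpar3 (11.2 to 12.8 RPKM), Ppap2b (8.41 to 12.6) and Lpar4 (9.17 to 10.4) followed, and neighbours in that order overlapped in their ranges. Lpar6 spanned 4.98 to 8.16 RPKM, below the range of Lpar4, and overlapped Lpar1 at 3.52 to 5.41 RPKM. Enpp2, at 2.74 and 4.31 RPKM in wildtype, overlapped the range of Lpar1, and at 1.12 and 0.819 RPKM in the mutant it reached that of Lpar2 (0.420 to 1.00 RPKM). The length of Enpp2 is the least certain, with 9 annotated transcripts: on its longest single transcript its mean was 4.20 RPKM, against 2.25 RPKM over all its exons.

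By edgeR's quasi-likelihood test adjusted over all genes, 0 of the 8 members passed the threshold of 0.05, against 0.0629% of the 14316 genes tested. Enpp2 stood at an adjusted p of 0.065 in that test. With the replicate number as a block 1 member passed, Enpp2, against 0.887% of genes, 0.196% as lower ones. Enpp2 also passed by DESeq2 and without a low count filter, settings in which 62 and 236 genes passed over all genes. It did not pass by limma-voom, with other scaling factors or with a stricter filter. All 8 members have a row in the authors' deposited table, which lists Enpp2 at a log2 fold change of -1.81 (mutant over wildtype) and the other members between -0.34 for Ppap2b and 0.34 for Lpar2. Of the 8 members 1, Enpp2, passed 0.05 by the adjusted p of the authors' deposited table, as did 0.374% of its 11507 rows. Since the set was chosen by Enpp2 in this contrast, nothing is read from any of these counts. In 3 of the 8 members, Enpp2, Lpar3 and Ppap2b, both mutant libraries lay below both wildtype libraries, and in 0 above. Over all tested genes 16.3% lay below in this way and 17.0% above. The median log2 fold change was -0.06 over the 8 members and -0.01 without Enpp2, which is near the median of all genes.

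**Figure D3:**
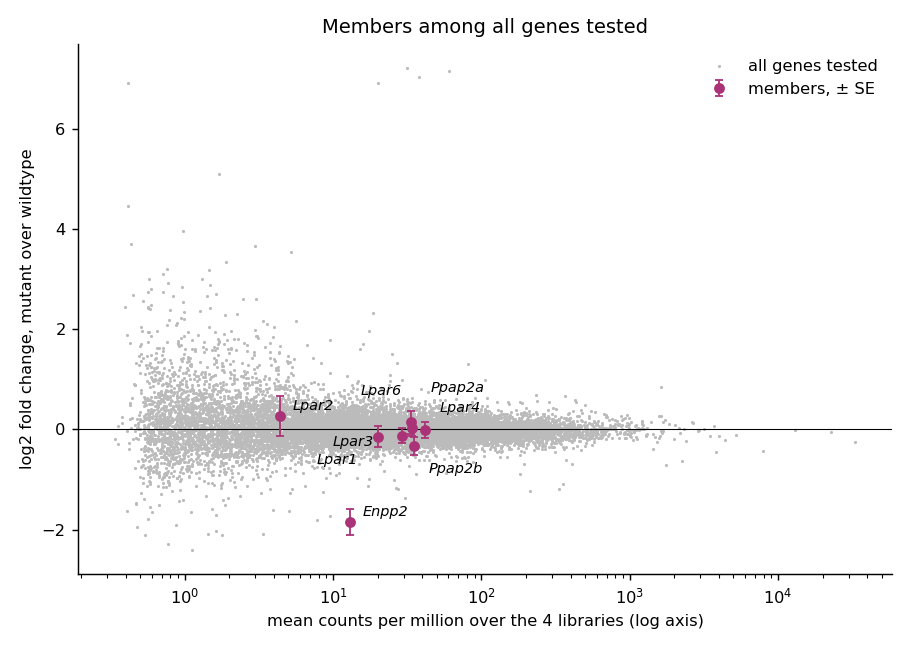
Log2 fold change (mutant over wildtype) against mean CPM (log axis) for the 14316 genes tested, in grey, and for the 8 members, in purple with standard errors. Enpp2, chosen for its lower mutant counts, lies at -1.84, at the lower edge of genes of its level. The other 7 members lie within the body of the grey points, between -0.33 and 0.27.

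Around these members, 113 further genes of LPA metabolism and signalling were listed in 7 groups. A row was found for 111 of them and 97 could be tested. By edgeR's quasi-likelihood test 0 of the 97 passed, against 0.0629% of all genes; 0 also passed with the replicate block, by DESeq2 and by limma-voom. At an unadjusted p under 0.05, 3 were higher and 3 lower, and of all tested genes 3.88% were higher and 1.9% lower by that mark. Their median log2 fold change was 0.02.

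Enpp2 belongs to the ectonucleotide pyrophosphatase and phosphodiesterase family, enzymes that cleave nucleotides or phospholipids outside cells. Of the 5 other members of the family that could be tested 0 passed, and all 5 had log2 fold changes below 0, with a median of -0.36. In 4 of the 5, both mutant libraries lay below both wildtype libraries, as 16.3% of all genes did. Enpp4, a surface enzyme of the vascular endothelium, measured 27.6 and 30.2 CPM in wildtype, against 23.3 and 25.7 CPM in the mutant, and Enpp5 measured 24.3 and 25.2 against 17.2 and 21.5 CPM. Enpp6, a choline-specific phosphodiesterase singled out after its values were seen, had 36 and 43 reads in wildtype and 17 and 11 in the mutant. Its levels were 1.92 and 2.71 CPM in wildtype, against 0.748 and 0.777 CPM in the mutant, so its groups did not overlap, on far fewer reads than Enpp2. Its log2 fold change was -1.59 ± 0.41 (SE), and edgeR's adjusted p was 0.311 (0.104 when replicates were blocked). DESeq2 gave an adjusted p of 0.716. With every gene kept, whatever its count, Enpp6 passed by edgeR, at 0.0291, in a fit that called 236 genes against 9 with the filter. Enpp1, a pyrophosphate-producing enzyme that restrains mineral deposition, had a log2 fold change of -0.10 ± 0.18 (SE), and Enpp7 had 1 read in all.

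Among other receptors of lysophospholipids, Lpar5 had at most 2 reads per library, under the 3 reads that a count of 0 allows, so the receptors listed above are those detected at this depth. Gpr34, a receptor of lysophosphatidylserine found on macrophages, had a log2 fold change of 0.00 ± 0.34 (SE). Gpr35, for which LPA has been proposed as a ligand, measured 0.426 and 0.442 CPM in wildtype, against 1.67 and 1.69 CPM in the mutant. On the log2 scale it was higher by 1.94 ± 0.45 (SE), at an adjusted p of 0.223 by edgeR and 0.686 by DESeq2. Without a low count filter it passed by edgeR, at 0.0283, in the fit that called 236 genes against 9 with the filter. Leukocyte markers were also higher in the mutant libraries: all 12 listed had log2 fold changes above 0, and their summed level was 134 to 139 CPM in wildtype, against 198 to 229 CPM in the mutant. The part of leukocytes in the Gpr35 value was not tested.

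The other lipid phosphatases and their relatives (7 tested) had a median log2 fold change of -0.33, with 5 below 0 and 0 past the threshold. Ppapdc1b (now Plpp5) measured 13.6 and 14.0 CPM in wildtype, against 14.1 and 15.1 CPM in the mutant, and Ppapdc2 (now Plpp6) 14.7 and 14.2 against 9.55 and 11.4 CPM. The log2 fold change of Ppapdc2 was -0.47 ± 0.19 (SE), with an edgeR adjusted p of 0.783. Enzymes that make or use LPA within cells or by other routes (25 tested) had a median of 0.00, with 14 above and 11 below 0. Lclat1, an acyltransferase that acts on lysocardiolipin, and Agpat6, which makes LPA from glycerol phosphate, stood at -0.11 ± 0.14 and 0.08 ± 0.13 (SE). By this test 0 of these 25 enzymes passed in either direction.

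Sphingosine 1-phosphate genes, the sister pathway of LPA (9 tested), had a median log2 fold change of 0.08. S1pr1, the main endothelial receptor of that lipid, stood at -0.09 ± 0.13 and Sgpl1, the lyase that destroys it, at 0.08 ± 0.16 (SE). YAP and SRF target genes, which LPA can induce in cultured cells, were listed together with regulators such as Yap1, Tead1 and Srf (26 tested). That list had a median of 0.03, with Tpm1 at 0.01 ± 0.17 and Flna at 0.13 ± 0.15 (SE). Within that group Cyr61, a classical YAP target, measured 25.2 and 23.5 CPM in wildtype, against 39.7 and 23.9 CPM in the mutant, high in mutant replicate 1 only. Its log2 fold change was 0.39 with all 4 libraries and 0.71 without mutant replicate 2, which leaves 1 mutant library. Cyr61 was named after its values were seen.

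**Figure D4:**
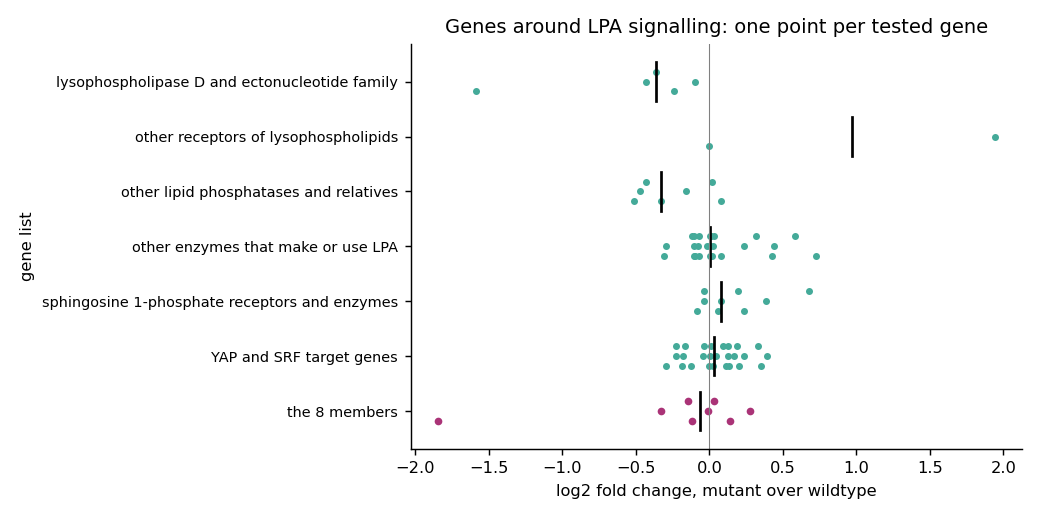
Log2 fold change (mutant over wildtype) of each tested gene in 6 of the 7 lists and of the 8 members (purple); black bars are medians. The list of YAP and SRF target genes, which also holds their regulators, and that of other LPA enzymes centre near 0. The other family members of Enpp2 have a median of -0.36, with Enpp6 at -1.59.

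The genes whose profile over the 4 libraries came nearest to that of Enpp2 were looked for among 10198 named genes with a mean of at least 5 CPM. The measure was the distance between log2 CPM profiles, each centred on its own mean. The nearest was Smoc1, a secreted matricellular protein, at a distance of 0.194, with 10.5 and 13.7 CPM in wildtype, against 3.92 and 2.90 CPM in the mutant. Then came Fgf12, an intracellular regulator of sodium channels (distance 0.520), at 9.16 and 20.2 CPM in wildtype, against 4.40 and 4.45 CPM in the mutant. Opcml, a membrane-anchored adhesion protein, followed at 0.723, Btn1a1, a butyrophilin, at 0.742 and Col23a1, a transmembrane collagen, at 0.748. These 5 genes were picked for being low where Enpp2 is low, so their lower mutant values are no further result. Smoc1, Fgf12 and Opcml, like Enpp2, were higher in wildtype replicate 2 than in wildtype replicate 1, whereas Btn1a1 and Col23a1 were not. Of the other members, Ppap2b came nearest to Enpp2, at 1.53, with 169 genes nearer, while Lpar6 was the farthest of the members compared, at 2.13.

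**Figure D5:**
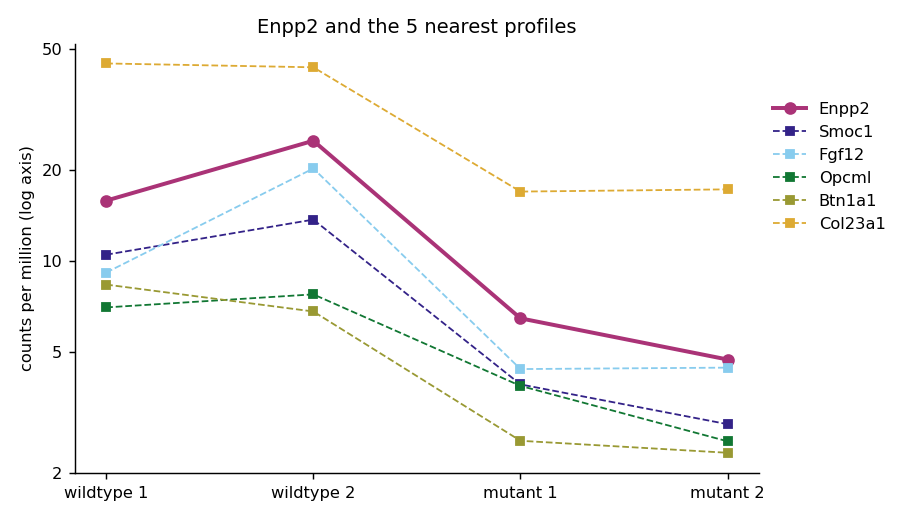
CPM (log axis) of Enpp2 and of the 5 genes nearest to its profile, in the 4 libraries; lines join values of 1 gene and imply no order of libraries. Enpp2, Smoc1, Fgf12 and Opcml peak in wildtype replicate 2, and all 6 genes are lower in both mutant libraries.

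Markers of the cell types that a cushion dissection can hold were set beside these values. Of 12 endocardial and endothelial markers 6 had log2 fold changes above 0 and 6 below, and their sum was 1457 and 1484 CPM in wildtype, against 1393 and 1407 CPM in the mutant. Npr3, an endocardial natriuretic peptide receptor, was the marker nearest to the Enpp2 profile, at 243 and 229 CPM in wildtype, against 124 and 132 CPM in the mutant. Cushion mesenchyme markers were below 0 in 8 of 12, with sums of 7829 and 7919 CPM in wildtype, against 8265 and 7320 CPM in the mutant. Markers of both layers of the labelled tissue were thus present, with none at 0. Cardiomyocyte markers, from the muscle beside the cushions, were below 0 in 10 of 12, with sums of 75545 and 67902 CPM in wildtype, against 59443 and 64750 CPM in the mutant. The next markers nearest to Enpp2 were of this type, Nppa (550 and 419 against 214 and 244 CPM) and Myh6, a cardiac myosin. Smooth muscle markers summed to 1541 to 1604 CPM in wildtype, against 1593 to 1678 CPM in the mutant, epicardial markers to 251 to 267 and 256 to 282 CPM, and erythroid markers to 760 to 834 and 829 to 1024 CPM. Neural crest, glial and neuronal markers summed to 21.6 to 27.7 CPM in wildtype, against 22.0 to 27.3 CPM in the mutant, with Foxd3 at 0. Epithelial markers summed to 16.6 to 21.2 and 18.9 to 19.4 CPM, with Cldn6, Cldn7, Foxa2 and Nkx2-1 under 3 reads in each library. Hepatocyte markers summed to 7.99 to 8.01 and 11.8 to 19.1 CPM, with Serpina1a under 3 reads in each library. The part of any of these cell types in the Enpp2 value was not tested.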

How the data were processed

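Libraries were made with ScriptSeq from RNA depleted of ribosomal RNA, per the labels' protocols. The authors deposited raw counts of reads for each symbol; tools named in the submitters' processing notes are TopHat2, Bowtie2, HTSeq, SAMtools and edgeR, with the mm10 build. The gene annotation, and whether strand was used in counting, is not given in the sources used here. Without strand, overlapping genes cannot be told apart. Rows that name no gene (51.8% to 54.4% of tallied reads outside features, 16.1% to 16.98% not uniquely aligned, 0.187% to 0.210% ambiguous) were left out. The authors' deposited table of their edgeR comparison holds log2 fold changes (wildtype over mutant, turned here), log2 CPM, a likelihood ratio score, p-values, adjusted p-values and a fold change ratio for 11507 rows.

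Genotypes were compared in edgeR 4.0.16 under R 4.3.3 (TMM, filterByExpr, quasi-likelihood F test, Benjamini-Hochberg over 14316 genes, threshold 0.05); DESeq2 1.42.0 and limma-voom (limma 3.58.1) were alternatives. TMM scaling was applied to CPM, and 2 reads were added as prior count before taking log2. RPKM divides CPM by the union of GENCODE M21 exons (mm10), matched by symbol or synonym for 22832 rows. A standard error is the fold change divided by the root of its F. The main, block, DESeq2 and limma-voom fits were also run on simulated counts with known fold changes. Those counts had the same spread for every gene and no pair or sex difference, so nothing about these data is read from them. Of the 7 pathway lists, 1 is counted in the totals and not reported here by itself. The members and lists were chosen with earlier results of these data known. Named genes were all members, list genes past the threshold or else the 2 of highest mean CPM, the 5 profiles and 3 markers nearest to Enpp2, and a few singled out after their values were seen.

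The series' design text speaks of paired mutants and littermates, with replicates 1 and 2 in each genotype. Across genes, which are not independent replicates, the replicate 1 libraries deviated from their genotype means with a correlation of 0.144. The numbers were read as pairs, and values with the block stand beside a result where the call changed.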

Additional observations from a re-analysis of the deposited data

How the results depend on the processing

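Of the 11 alternative fits, all left the log2 fold change of Enpp2 below 0, from -2.13 to -1.49, and within the spread between replicates of the value given. Lpar3 and Ppap2b stayed below 0 in all fits; Lpar1, Lpar2, Lpar4, Lpar6 and Ppap2a changed sign in at least 1. The count of 9 genes over all genes became 62 with DESeq2, 236 without a filter and 127 with the replicate block (99 higher, 28 lower), and leaving out 1 library gave 3 to 443: 3 without wildtype replicate 2, 6 without wildtype replicate 1, 180 without mutant replicate 1 and 443 without mutant replicate 2. The cause was not tested. Among the fits of all 4 libraries, the count of 0 pathway genes changed only without a filter, to 2, Enpp6 and Gpr35. It also changed without mutant replicate 2, a fit that leaves 1 mutant library. With the block Enpp2, Smoc1, Fgf12, Btn1a1, Npr3 and Nppa passed, which did not pass in the same test without it. Enpp2 was chosen for its low mutant values and the others for profiles near its own, so these calls support nothing. The block changed no other call among the members, the pathway lists and the genes nearest to Enpp2. On the longest single transcript in place of all exons, mean RPKM became 4.20 for Enpp2, 5.71 for Lpar1 (from 4.71) and 21.5 for Ppap2a (from 19.6). With a prior count of 0.5, 5 of the 5 nearest profiles were shared. The fits of all 4 libraries had 2 residual degrees of freedom, or 1 with the block. Leaving out a library also lowered that number, and a lone library is assumed to vary like the other group. Lpar2, Enpp6 and Gpr35 are the values that depth limits most.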
